A study of Mus musculus with 12 samples.

Results

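The 7 genes described here carry out presentation of peptides on major histocompatibility complex (MHC) class II in mouse liver. They were chosen by name: the class II chains H2-Aa, H2-Ab1 and H2-Eb1, the invariant chain Cd74, the transactivator Ciita and the peptide editor chains H2-DMa and H2-DMb1. All 7 were among the 20143 genes of the deposited table, and all 7 passed the filter of a mean of at least 10 CPM, counts scaled to the same total in each library, over the 12 mice that 9186 genes passed.

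Class II molecules are held on the surface of dendritic cells, B cells and macrophages, where an alpha and a beta chain together show peptides from engulfed proteins to helper T cells. The invariant chain fills the groove of the new molecule and guides it to endosomes, where proteases cut the chain down and the DM heterodimer exchanges the remnant for an antigenic peptide. Ciita binds no DNA itself: it is recruited to factors sitting on the X and Y boxes of class II promoters, and interferon-gamma can switch it on, in part through Irf1. In liver, resident Kupffer cells, recruited macrophages and dendritic cells are known to present on class II.

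Livers of 6 mice lacking Hsd17b13 (KO) and of 6 wild-type mice (WT) were sequenced, with 1 library per mouse. All 12 mice were put on CDAA-HFD, a high-fat diet without choline and with amino acids in place of protein, at 8 to 10 weeks of age and stayed on it for 12 weeks, so no group on another diet is part of the comparison. The sources used here give neither the way the KO allele was made nor the sex and litter of the mice. Hsd17b13, a lipid droplet enzyme of hepatocytes, was at 1.18 ± 0.181 CPM in KO livers and 347 ± 36.0 CPM in WT livers (SD, n = 6 each). The 6 hepatocyte markers summed to 67590 to 83379 CPM in KO livers and 66292 to 86197 CPM in WT livers, so the markers of the labelled tissue were abundant in every library. Depth, read from the smallest step between values, was 46.3 to 77.9 counts for each CPM, depending on the library. The values of the 7 genes stood on 552 to 22049 counts each, with a counting error of at most 4.26%, which covers counting only.

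H2-Aa (ENSMUSG00000036594), H2-Ab1 (ENSMUSG00000073421), H2-Eb1 (ENSMUSG00000060586), H2-DMa (ENSMUSG00000037649) and H2-DMb1 (ENSMUSG00000079547) lie on chromosome 17 and Ciita (ENSMUSG00000022504) on chromosome 16. The regions from the mm10 annotation are chr17:34282744-34287823 on the minus strand for H2-Aa, and on the plus strand chr17:34257689-34269419 for H2-Ab1, chr17:34305867-34316674 for H2-Eb1, chr17:34119541-34139101 for H2-DMa, chr17:34153072-34160230 for H2-DMb1 and chr16:10480059-10528418 for Ciita. RefSeq promoter windows of build GRCm38.p6, 250 bases before to 50 after a gene's start, were on hand for H2-Aa, H2-Eb1, H2-DMa and H2-DMb1. The stretches below are shown because genes on which Ciita acts share a fixed promoter layout. They run 5′ to 3′ on the gene's own strand, and capitals mark the letters GNAAC from the X box and ATTGG from the Y box.
H2-Aa, chr17:34287824-34287953, minus strand: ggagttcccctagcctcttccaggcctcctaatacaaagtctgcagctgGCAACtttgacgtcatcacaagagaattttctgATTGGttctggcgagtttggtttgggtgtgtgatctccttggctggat
H2-Eb1, chr17:34305737-34305866, plus strand: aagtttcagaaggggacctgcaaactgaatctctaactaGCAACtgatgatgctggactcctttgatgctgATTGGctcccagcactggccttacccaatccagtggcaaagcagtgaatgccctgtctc
H2-DMb1, chr17:34153091-34153120, plus strand, X box stretch alone: tacctaGTAACtgatgatgctaggctgatt

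In H2-Aa the GNAAC letters began 81 bases before the start and were followed by ATTGG after 28 bases. In H2-Eb1 they began 91 bases before the start, with a gap of 27 bases, and in H2-DMb1 94 bases before, with a gap of 28 bases. For H2-DMb1 the RefSeq start lies downstream of the gene start of the mm10 annotation above, so its X box stretch falls inside the annotated gene. The order GNAAC, 20 to 35 bases, ATTGG, searched on both strands of the 250 bases before the start, was in 2.253% of 32851 promoter windows, whereas ATTGG alone was in 33.85%. H2-Eb1 and H2-DMb1 shared the run GNAACTGATGATGCT, the longest they have in common from the X box letters on. The run was read from these 2 windows, and no other window held it (2 windows, 0.006088%). H2-Aa held TGACGTCA, found in 1.546% of windows, shortly after its X box letters. The ordered pair was in neither of the windows of H2-DMa, which says only that these letters are not in those windows. The motifs were chosen after the windows had been read, so the matches are descriptions and not tests.

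All 7 genes had a higher mean in KO than in WT livers, by 1.17-fold for H2-DMa to 1.30-fold for H2-Eb1, and none passed the test. The test was limma on log2(CPM + 1) with p-values adjusted over all 9186 genes and a threshold of 0.05. None of the 7 was called, beside 14 of the 9186 genes called in all (0.152%), 10 of them higher in KO (0.109%). Before adjustment, limma gave H2-Eb1, Cd74, H2-Ab1 and Ciita p-values under 0.05, 4 of 7, beside 4.51% of all genes with such a p in that direction. The log2 difference was above 0 for 7 of 7, beside 45.6% of all genes, with a median of 0.32 for the 7 and -0.01 for all genes. The 7 genes moved together from mouse to mouse, as described below, so these counts are not 7 separate results. In no gene of the 7 did every KO mouse lie above every WT mouse, which 0.359% of all genes showed. In bulk tissue, fewer cells of a type and less RNA per cell cannot be told apart.

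**Figure D1:**
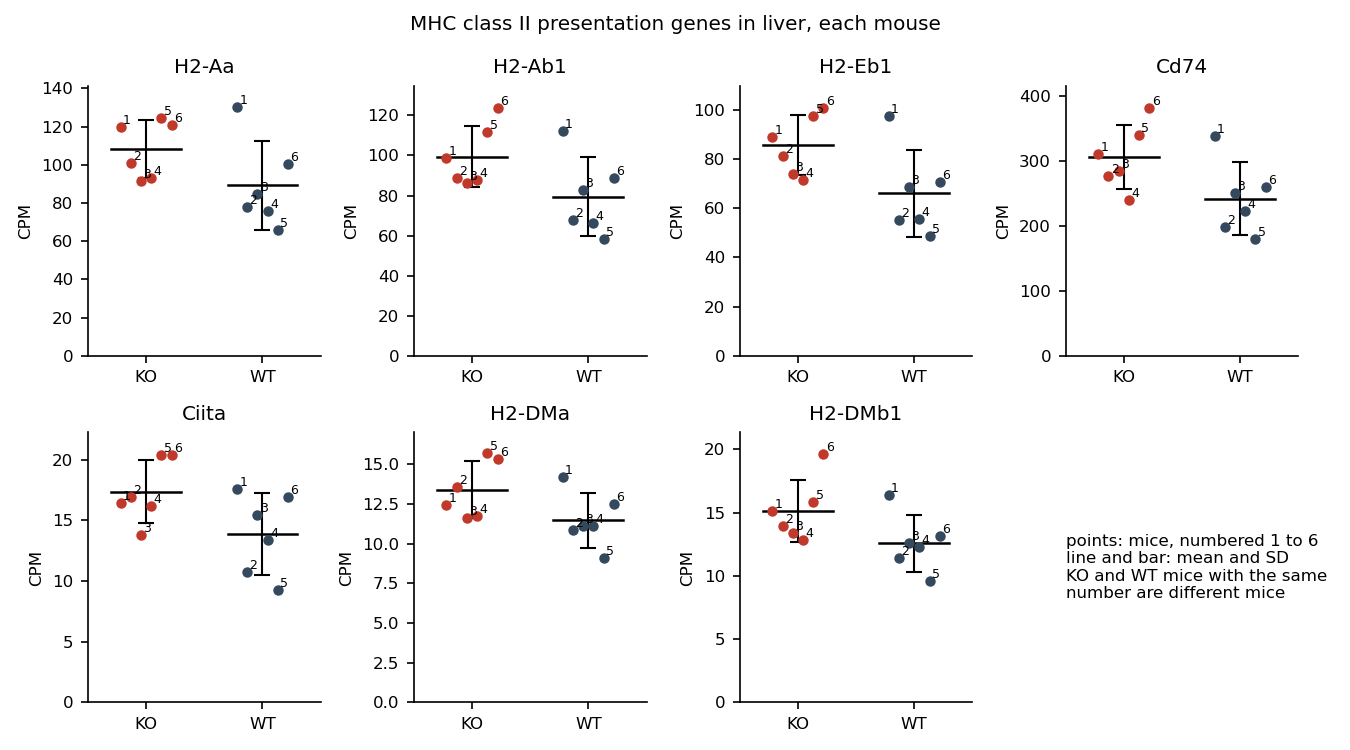
CPM of each class II gene in 6 KO mice (red, left in each panel) and 6 WT mice (blue, right); points are mice with their numbers, the line is the mean and the bar 1 SD. WT mouse 1 sits among the highest KO mice in every panel and WT mouse 5 is the lowest mouse in every panel, so the genotypes overlap for all 7 genes.

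Among the class II chains, H2-Eb1, a beta chain whose alpha partner H2-Ea is not analysed here, differed most. An antisense gene annotated across H2-Eb1, Gm20513, is likewise not analysed here. KO mice 1 to 6 held 89.0, 80.9, 73.7, 71.2, 97.3 and 100.7 CPM of H2-Eb1. WT mice 1 to 6 held 97.3, 55.2, 68.4, 55.7, 48.5 and 70.7 CPM. WT mouse 1 lay with the highest KO mice, and the other 5 WT mice lay below all 6 KO mice, by a margin of 71.2 against 70.7 CPM. The means were 85.5 ± 12.2 CPM in KO and 66.0 ± 17.5 CPM in WT (log2 difference 0.39, SE 0.15, 95% interval 0.08 to 0.71, limma adjusted p = 0.342; exact permutation p = 0.0433 for this gene alone, unadjusted).

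H2-Ab1, the beta chain that pairs with H2-Aa, ran from 86.2 through a median of 93.7 to 124 CPM in KO mice and from 58.5 through 75.3 to 112 CPM in WT mice. Of the KO mice, 1 exceeded every WT mouse, and 4 exceeded WT mice 2 to 6. Its means were 99.4 ± 15.3 CPM in KO and 79.4 ± 19.6 CPM in WT (log2 difference 0.34, SE 0.14, limma adjusted p = 0.441). H2-Aa, its alpha chain, ran from 91.3 through 110 to 124 CPM in KO mice and from 66.0 through 81.4 to 130 CPM in WT mice. Here the highest of all mice was a WT mouse, number 1, and no KO mouse exceeded it. The means of H2-Aa were 108 ± 15.0 CPM in KO and 89.2 ± 23.1 CPM in WT (log2 difference 0.30, SE 0.14, 95% interval -0.01 to 0.61, limma adjusted p = 0.529).

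Cd74 (ENSMUSG00000024610, chromosome 18), the invariant chain, ran from 241 through a median of 298 to 382 CPM in KO mice and from 181 through 237 to 339 CPM in WT mice. KO mice 5 and 6 exceeded every WT mouse, and for 22.1% of all genes at least 2 KO mice did so. KO mouse 4 lay below WT mice 1, 3 and 6. The means were 306 ± 49.9 CPM in KO and 242 ± 56.4 CPM in WT (log2 difference 0.35, SE 0.14, 95% interval 0.04 to 0.66, limma adjusted p = 0.412).

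The DM chains, which catalyse peptide exchange, showed the smallest differences of the 7. H2-DMa was between 11.6 and 15.7 CPM in KO mice, with a median of 13.0, and between 9.08 and 14.2 CPM in WT mice, with a median of 11.1. Its means were 13.4 ± 1.79 CPM in KO and 11.5 ± 1.73 CPM in WT (log2 difference 0.21, SE 0.10, limma adjusted p = 0.544). H2-DMb1 was between 12.8 and 19.6 CPM in KO mice, with a median of 14.5, and between 9.56 and 16.4 CPM in WT mice, with a median of 12.5. Its means were 15.1 ± 2.47 CPM in KO and 12.6 ± 2.27 CPM in WT (log2 difference 0.25, SE 0.12, limma adjusted p = 0.518). H2-DMa is annotated across the start of Brd2, a more abundant gene of the opposite strand at 147 CPM in KO and 146 CPM in WT, and no source used here gives the strand setting of the counting. Reads of H2-DMa and Brd2 where they overlap may therefore be split between them in ways these values do not show. H2-DMb1 is 98% identical to H2-DMb2 over 200 bases, so reads from that stretch are uncertain too, though H2-DMb2 was low.

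Ciita, the transactivator, ran from 13.8 through a median of 16.7 to 20.4 CPM in KO mice and from 9.29 through 14.4 to 17.6 CPM in WT mice. KO mice 5 and 6 lay above every WT mouse, while KO mouse 3 lay below WT mice 1, 3 and 6. The means were 17.4 ± 2.59 CPM in KO and 13.9 ± 3.38 CPM in WT (log2 difference 0.32, SE 0.15, 95% interval 0.01 to 0.64, limma adjusted p = 0.497). Ciita overlaps Dexi on the opposite strand, which was at 14.1 CPM in KO and 14.6 CPM in WT.

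Levels of different genes can be set side by side only per length. Per kilobase of annotated exon, Cd74 was the most abundant, at 182 ± 29.7 CPM per kb in KO and 144 ± 33.6 CPM per kb in WT. The chains followed in the order H2-Eb1 (44.0 ± 6.29 in KO, 33.9 ± 9.02 in WT), H2-Ab1 (38.7 ± 5.96 in KO, 30.9 ± 7.64 in WT) and H2-Aa (28.5 ± 3.95 in KO, 23.5 ± 6.08 in WT), all in CPM per kb. The spreads of H2-Eb1 and H2-Ab1 overlapped in both genotypes, and those of H2-Ab1 and H2-Aa overlapped in WT. H2-DMb1 was at 8.99 CPM per kb in KO and 7.48 in WT, H2-DMa at 3.89 in KO and 3.33 in WT, and Ciita came last at 1.82 in KO and 1.46 in WT. The order was the same in both genotypes, for which the same lengths were used. A length counts every annotated exon base of a gene, not the transcripts present in these livers. It was 1944 bases for H2-Eb1, 2568 for H2-Ab1 and 3798 for H2-Aa. In CPM these chains stood in the reverse order in both genotypes, so their order per kilobase rests on the lengths.

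The 7 genes followed each other from mouse to mouse. WT mouse 5 was the lowest of the 12 mice for 7 of 7 genes, and WT mice 2 and 4 held the next places from the bottom for each of them. KO mice 5 and 6 and WT mouse 1 shared the 3 highest places for every gene. The summed level of the 7 genes ran from 533 to 782 CPM in KO mice and from 382 to 727 CPM in WT mice, where 727 CPM belonged to WT mouse 1 and the next WT mouse was at 563 CPM. Without WT mouse 1, limma called none of the 7 (beside 0.175% of all genes, and 0.12% higher in KO), with a log2 difference of 0.51 and an adjusted p of 0.114 for H2-Eb1. Without that mouse all 7 log2 differences were above 0 (beside 46.4% of all genes). All 7 then had an unadjusted limma p under 0.05 (beside 3.62% of all genes in that direction). H2-Eb1 was the 1 gene of the 7 whose KO mice all lay above the remaining WT mice (beside 0.457%). WT mouse 1 was singled out because these genes were high in it, so leaving it out was bound to widen their differences. The shares of all genes are therefore no fair background for these counts. Leaving out KO mouse 5 or 6 or WT mouse 2, 4 or 5 instead left 1 of 7 with such a p. WT mouse 1 also had the highest summed markers of leukocytes (362 CPM), dendritic cells (131 CPM), recruited macrophages (2636 CPM), B cells (36.0 CPM), T cells (19.0 CPM) and cholangiocytes (773 CPM), and the lowest of Kupffer cells (361 CPM), and the part of these in its class II level was not tested.

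**Figure D2:**
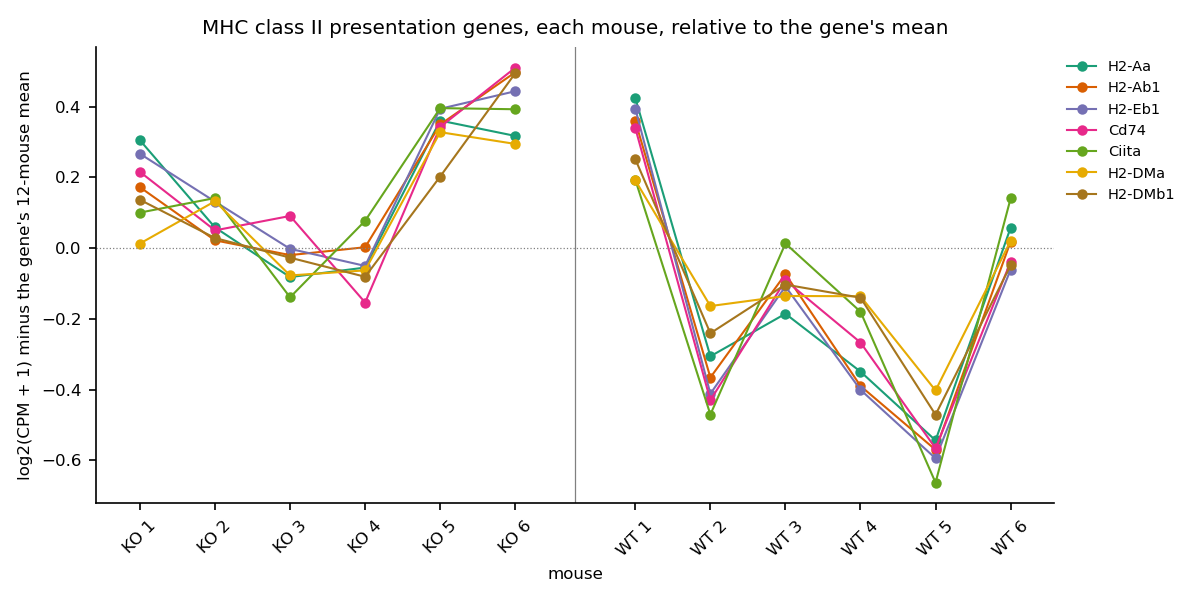
Each line is a class II gene and each position a mouse, KO mice on the left and WT mice on the right; the y axis is log2(CPM + 1) minus that gene's mean over the 12 mice. The 7 lines run close together, with WT mouse 1 and KO mice 5 and 6 high and WT mouse 5 lowest. Mice are in the order of their numbers, which carries no trend.

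Ratios between the genes within a mouse do not depend on how the library was scaled, and they varied less than the levels. The log2 differences of ratios given here were taken on log2(CPM + 1), so they and their p-values do depend on scaling. Over the 12 mice the coefficient of variation was 4.32% for H2-Eb1 over H2-Ab1, 5.26% for Cd74 over H2-Ab1 and 5.96% for H2-Aa over H2-Ab1, with 7.03% for H2-DMa over H2-DMb1 and 9.02% for Ciita over H2-Ab1. The levels themselves had coefficients of variation of 13.3% to 16.3% among KO mice and 15.0% to 26.6% among WT mice. The alpha to beta ratio H2-Aa over H2-Ab1 was 1.09 ± 0.081 in KO and 1.12 ± 0.050 in WT (log2 difference -0.04, exact permutation p = 0.461, adjusted over 5 ratios 0.801). Cd74 stood at 3.08 ± 0.185 times H2-Ab1 in KO and 3.06 ± 0.151 times in WT (log2 difference 0.01, SE 0.05, exact permutation p = 0.831, adjusted 0.831). H2-Eb1 over H2-Ab1 was 0.862 ± 0.042 in KO and 0.829 ± 0.022 in WT (log2 difference 0.05, SE 0.03, exact permutation p = 0.134, adjusted 0.671). The DM chains stood at 0.893 ± 0.084 (H2-DMa over H2-DMb1) in KO and 0.918 ± 0.040 in WT (log2 difference -0.04, SE 0.06, exact permutation p = 0.481, adjusted 0.801). Ciita over H2-Ab1 was 0.175 ± 0.013 in KO and 0.176 ± 0.020 in WT (log2 difference -0.02, SE 0.07, exact permutation p = 0.799, adjusted 0.831). None of the 5 ratios passed, and each log2 difference was smaller than the SD of its log2 ratio among KO mice. Among WT mice the same held except for H2-Eb1 over H2-Ab1, whose log2 difference of 0.053 exceeded the SD of 0.038.

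The level of Ciita was related to the level of the genes it acts on. Over the 12 mice, Pearson's r with Ciita on the log2(CPM + 1) scale was 0.927 for H2-Ab1, 0.921 for H2-DMa, 0.912 for H2-Eb1, 0.900 for Cd74, 0.891 for H2-DMb1 and 0.887 for H2-Aa. Spearman's rho ran from 0.881 for Cd74 to 0.993 for H2-DMa. The permutation p of r was 7e-05 or less for each (6 relations, adjusted p of 6e-05 to 7e-05), where 1e-05 is the smallest that 100000 permutations can give, and the adjusted p of rho ran from 6e-05 to 0.00046. Leaving out WT mice 5 and 2, the farthest from the median of Ciita, left r between 0.783 for Cd74 and 0.918 for H2-DMa. Within the 6 KO mice r ran from 0.709 for Cd74 (exact permutation p = 0.106) to 0.939 for H2-DMa (exact permutation p = 0.00139). Within the 6 WT mice r ran from 0.858 for H2-Aa (exact permutation p = 0.0208) to 0.929 for Cd74 (exact permutation p = 0.00556). The values compared come from the same libraries and share their composition. The share of all genes as closely related to Ciita is not given here. Close relations were not particular to Ciita. With values centred within genotype, as described below, r with the class II pattern was 0.934 for Marcksl1 and 0.920 for Coro1a. For Ciita it was 0.895, with the mean of the other 6 genes.

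The factors that hold Ciita at class II promoters had differences on both sides of 0. Of 7 tested factors, none was called, 2 had differences above 0 and the median log2 difference was -0.07. Rfxank, an RFX subunit, averaged 16.4 ± 2.25 CPM in KO and 21.1 ± 3.06 CPM in WT (log2 difference -0.34, SE 0.11, limma adjusted p = 0.251), the 1 factor with an unadjusted p under 0.05. Rfx5, the DNA-binding RFX subunit, was at 20.3 ± 1.92 CPM in KO and 20.4 ± 2.41 CPM in WT. The NF-Y subunits, which bind the Y box, were at 23.6 ± 2.42 CPM in KO and 26.2 ± 2.82 CPM in WT for Nfya (limma adjusted p = 0.630) and at 27.7 ± 1.66 CPM in KO and 25.7 ± 0.849 CPM in WT for Nfyb (limma adjusted p = 0.557). Zxdc, a zinc finger partner of Ciita, was at 24.1 ± 1.98 CPM in KO and 25.4 ± 1.63 CPM in WT (limma adjusted p = 0.790). Rfxap, the remaining RFX subunit, was under the filter at 7.19 ± 0.728 CPM in KO and 7.41 ± 0.459 CPM in WT.

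On the interferon-gamma route to Ciita, 6 genes were tested, none was called, and the median log2 difference was 0.03. Irf1, an activator of Ciita, averaged 47.8 ± 9.11 CPM in KO and 39.7 ± 6.40 CPM in WT (limma adjusted p = 0.567). The receptor chains had differences below 0. Ifngr1 was at 44.3 ± 3.57 CPM in KO and 51.2 ± 4.74 CPM in WT (limma adjusted p = 0.303), and Ifngr2 at 51.5 ± 7.25 CPM in KO and 57.3 ± 5.12 CPM in WT (limma adjusted p = 0.630). Ifng itself is not analysed here.

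Endosomal processing genes showed no common direction: 4 of 9 tested genes had differences above 0, none was called and the median was -0.02. Cathepsin D (Ctsd) averaged 954 ± 100.3 CPM in KO and 1122 ± 138 CPM in WT (log2 difference -0.23, SE 0.09, limma adjusted p = 0.389). Cathepsin S (Ctss), which trims the invariant chain in antigen-presenting cells, averaged 228 ± 24.4 CPM in KO and 269 ± 56.9 CPM in WT (log2 difference -0.22, SE 0.12, limma adjusted p = 0.610). Cystatin C (Cst3), a cathepsin inhibitor, averaged 123 ± 8.34 CPM in KO and 137 ± 18.6 CPM in WT (limma adjusted p = 0.635). Marchf8, a ubiquitin ligase of the MARCH family, averaged 139 ± 4.54 CPM in KO and 133 ± 3.43 CPM in WT (limma adjusted p = 0.630).

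Of the 8 costimulatory and inhibitory genes at the contact with T cells, Cd274 alone reached the filter. This ligand of the inhibitory receptor PD-1 averaged 15.3 ± 3.01 CPM in KO and 10.3 ± 1.62 CPM in WT (log2 difference 0.52, SE 0.12, limma adjusted p = 0.134). For Cd274, 5 of 6 KO mice exceeded the highest WT mouse. All 6 did so for 0.359% of all genes and at least 2 for 22.1%, and the share for 5 is not given here. The classical costimulator Cd86 was under the filter at 7.65 ± 1.03 CPM in KO and 6.37 ± 0.522 CPM in WT. It is named here after its values were seen. Cd80 and Icosl of the same list, also under the filter, lay the other way. Cd80 was at 1.38 ± 0.133 CPM in KO and 1.48 ± 0.104 CPM in WT, and Icosl at 4.66 ± 0.836 CPM in KO and 5.35 ± 0.556 CPM in WT. Cd40, Cd4, Lag3 and Cd28 had higher means in KO.

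**Figure D3:**
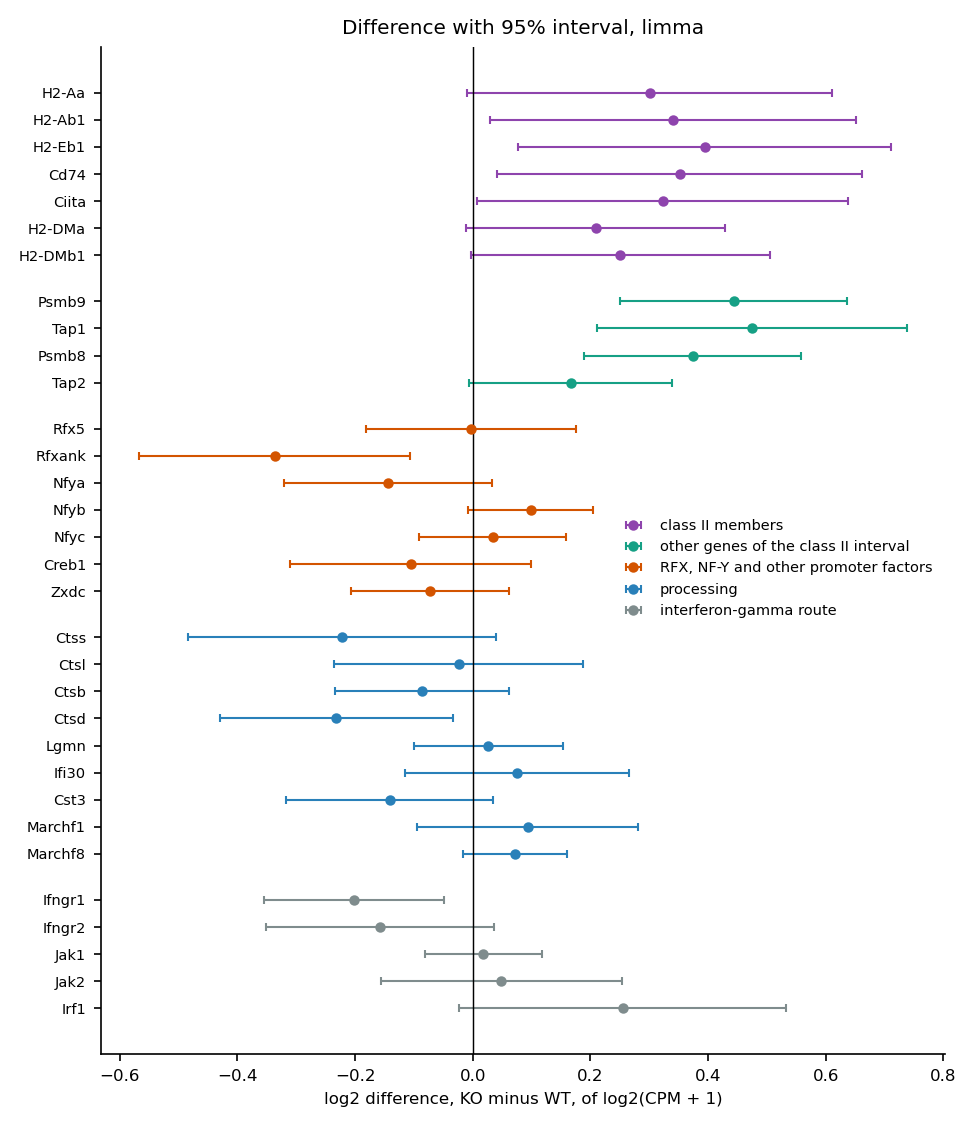
Log2 difference, KO minus WT, of log2(CPM + 1) with its 95% interval from limma, for the 7 class II genes and, below them, the other tested genes of the class II interval, the promoter factors, the processing genes and 5 genes of the interferon-gamma route. The 7 class II genes lie between 0.21 and 0.39, the interval genes Psmb9, Tap1 and Psmb8 between 0.37 and 0.47, and Rfxank at -0.34.

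The 5 class II genes of chromosome 17 span chr17:34119541-34316674, 197 kb that hold 17 annotated genes, of which 12 were in the table and 9 were tested. The 4 tested genes that are not class II serve class I presentation, and their log2 differences lay between 0.17 and 0.47, beside 0.21 to 0.39 for the 7 class II genes. Psmb9, an immunoproteasome subunit, averaged 24.6 ± 3.24 CPM in KO and 17.8 ± 1.87 CPM in WT (log2 difference 0.44, SE 0.09, limma adjusted p = 0.0854). Psmb8, another such subunit, averaged 42.5 ± 5.17 CPM in KO and 32.5 ± 3.20 CPM in WT (log2 difference 0.37, SE 0.09, limma adjusted p = 0.124). The peptide transporter subunit Tap1 averaged 63.6 ± 10.2 CPM in KO and 45.6 ± 8.38 CPM in WT (log2 difference 0.47, SE 0.12, limma adjusted p = 0.160), and its partner Tap2 50.1 ± 4.94 CPM in KO and 44.6 ± 4.99 CPM in WT (log2 difference 0.17, SE 0.08, limma adjusted p = 0.533). The class II genes H2-Ob and H2-DMb2 in the same interval were low. H2-Ob was at 2.38 ± 0.438 CPM in KO and 2.25 ± 0.364 CPM in WT, and H2-DMb2 at 1.75 ± 0.293 CPM in KO and 1.74 ± 0.207 CPM in WT. The predicted gene Gm15821 was at 0.628 CPM in KO and 0.566 CPM in WT. Outside the interval, H2-Oa was at 0.732 CPM in KO and 0.721 CPM in WT, and H2-Eb2 at 0.899 CPM in KO and 0.807 CPM in WT.

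Class I presentation as a whole was described by 16 genes, all tested, none called and all with differences above 0 (median 0.27). Of these, 14 had an unadjusted limma p under 0.05, beside 4.51% of all genes in that direction. B2m, the light chain of class I, averaged 1274 ± 50.2 CPM in KO and 1079 ± 70.2 CPM in WT, and 6 of 6 KO mice exceeded the highest WT mouse (beside 0.359% of all genes), and its difference was 0.24 (SE 0.06, limma adjusted p = 0.132). The median of the 7 class II genes was 0.32, and the difference between the lists was not tested. Nlrc5, the class I counterpart of Ciita, averaged 63.4 ± 13.9 CPM in KO and 50.7 ± 9.90 CPM in WT (limma adjusted p = 0.585).

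Markers of cells that carry class II did not point one way. The summed leukocyte markers lay at 256 to 338 CPM in KO and 235 to 362 CPM in WT, and 2 of the 5 tested genes had differences above 0. Dendritic cell markers summed to 76.8 to 103 CPM in KO and 84.4 to 131 CPM in WT. The 3 of 10 dendritic markers that were tested all had differences below 0, with Itgax, an integrin of dendritic cells and macrophages, at 44.8 ± 5.89 CPM in KO and 57.6 ± 10.9 CPM in WT (limma adjusted p = 0.286), Fscn1, an actin-bundling protein, at an adjusted p of 0.452 by limma and Zbtb46 at 0.974. Of the 7 dendritic markers under the filter, 5 had a higher mean in KO, with Clec9a, a receptor of cross-presenting dendritic cells, at 7.52 ± 1.31 CPM in KO and 6.10 ± 0.742 CPM in WT. B cell markers summed to 23.8 to 34.7 CPM in KO and 24.6 to 36.0 CPM in WT, and T cell markers, none of 12 tested, to 11.1 to 17.7 CPM in KO and 8.37 to 19.0 CPM in WT. No marker of any list was at 0 in all mice. The 1 B cell gene that reached the filter, Ighm, was at 11.3 ± 1.31 CPM in KO and 10.1 ± 1.39 CPM in WT (limma adjusted p = 0.691). Under the filter, Jchain, the joining chain of secreted antibodies, had the smallest p of the list, at 3.03 ± 1.24 CPM in KO and 6.48 ± 2.91 CPM in WT (log2 difference -0.88, limma adjusted p = 0.120 with no filter).

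Tested markers of resident and of recruited macrophages had differences of opposite sign, and no gene of either list was called. Kupffer cell markers summed to 545 to 728 CPM in KO and 361 to 541 CPM in WT, with all 5 tested genes of 7 above 0. Cd5l, a secreted protein of resident macrophages, was at 237 ± 26.5 CPM in KO and 168 ± 29.1 CPM in WT (limma adjusted p = 0.134). Recruited macrophage markers summed to 1063 to 1581.0 CPM in KO and 1581.1 to 2636 CPM in WT, with all 9 tested genes of 11 below 0. Their smallest limma adjusted p, 0.120, was that of the lysozyme gene Lyz2. The other 2 recruited macrophage markers, under the filter, lay the other way: Ly6c2, a monocyte surface protein, was at 5.33 ± 2.40 CPM in KO and 3.08 ± 0.568 CPM in WT, and Chil3 at 2.39 ± 1.04 CPM in KO and 1.66 ± 0.585 CPM in WT. Sinusoidal endothelial markers summed to 434 to 622 CPM in KO and 453 to 566 CPM in WT, with 7 of 8 tested genes above 0. Cholangiocyte markers summed to 154 to 320 CPM in KO and 260 to 773 CPM in WT. The part of these cell types in the class II levels was not tested.

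The class II genes were also set against the leukocyte markers of the same mouse, a description added after the values were seen and given without a test. The 7 genes summed to 2.25 ± 0.189 times the summed leukocyte markers in KO and 1.74 ± 0.237 times in WT, and 5 of 6 KO mice exceeded the highest WT mouse. For H2-Ab1, H2-DMa and H2-DMb1 this ratio was higher in all 6 KO mice than in any WT mouse, which 0.218% of all genes showed. Per Ptprc, which is 1 of those leukocyte markers, the genotypes overlapped for all 7 genes, beside 0.0871% of all genes whose KO mice all lay above the WT mice. The sum was 7.04 ± 0.869 times Ptprc in KO and 6.11 ± 0.995 times in WT, and 1 of 6 KO mice exceeded the highest WT mouse. The separation of the genotypes therefore differs with the leukocyte genes that form the denominator.

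The likeness of each other gene to the class II pattern was taken as Pearson's r over the 12 mice with the mean of the 7 genes, each centred within its genotype, so that the difference between genotypes plays no part. It is given as a description. Each of the 7 had an r of 0.895 (Ciita) to 0.981 (H2-Ab1) with the mean of the other 6, and the 9179 other genes had a median r of 0.19, with 62 above 0.8 and 4 above 0.9. The most like were Marcksl1 (0.934), a MARCKS-related actin regulator, Sap30bp (0.927), Coro1a (0.920), the leukocyte coronin, and Lsp1 (0.903), a leukocyte actin-binding protein. Then came Cnn2 (0.897), a calponin, Socs5 (0.897), a suppressor of cytokine signalling, the Golgi complex subunit Cog2 (0.895), the Mediator subunit Med17 (0.893), Tyrobp (0.878), a signalling adaptor of myeloid cells, and Pwwp2b (0.871). None of these 10 had a positive difference near that of the class II genes. Their log2 differences, KO minus WT, lay between -0.30 for Tyrobp and 0.04 for Sap30bp and Coro1a. Coro1a, for example, averaged 27.3 ± 3.02 CPM in KO and 26.9 ± 5.47 CPM in WT (limma adjusted p = 0.961). The genes with the lowest r were Klf9 (-0.878), a Krüppel-like transcription factor, Tbc1d30 (-0.876) and Phyh (-0.859), a peroxisomal hydroxylase.

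**Figure D4:**
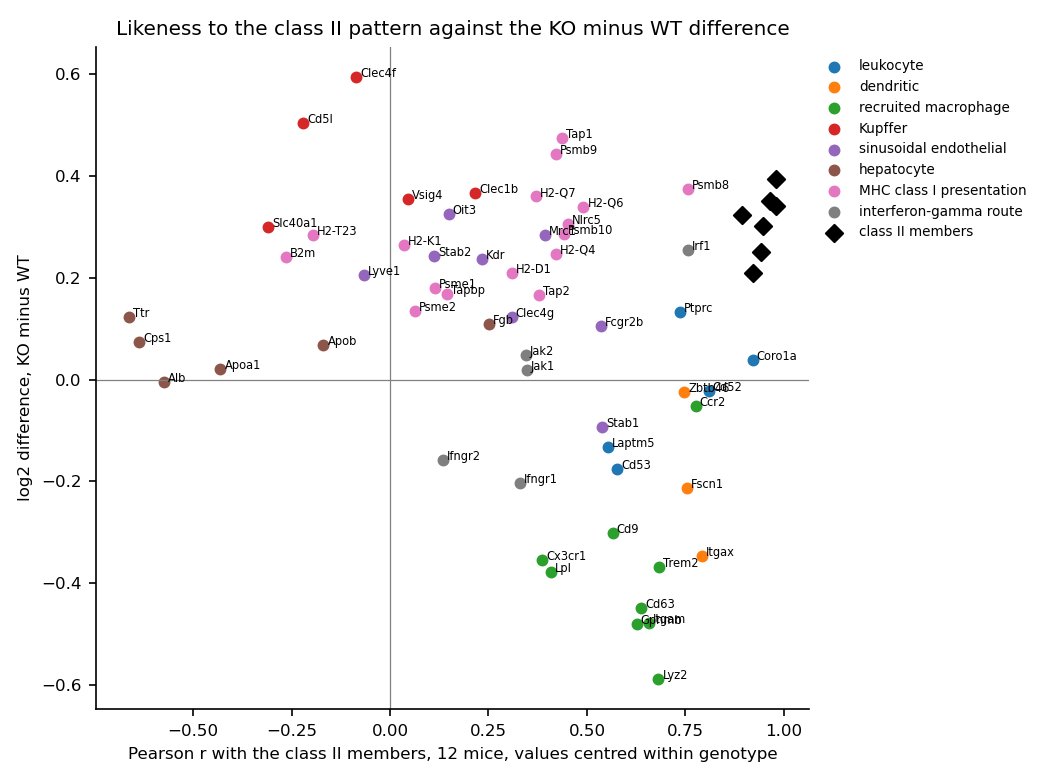
Each point is a listed gene or a class II gene (black diamonds); the x axis is Pearson's r with the class II pattern over 12 mice after centring within genotype, the y axis the log2 difference, KO minus WT. The class II genes lie at the right with differences above 0, leukocyte, dendritic and recruited macrophage markers lie to the right of 0 with differences of 0.13 or less, and Kupffer markers lie further left with differences above 0.

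Among the listed genes, the leukocyte markers had an r of 0.809 for Cd52, 0.736 for Ptprc, the pan-leukocyte phosphatase, 0.577 for Cd53 and 0.553 for Laptm5, beside 0.920 for Coro1a. The dendritic marker Itgax had an r of 0.793. Over all other genes the 95th percentile was 0.677. The monocyte receptor Ccr2 had an r of 0.776. Kupffer markers lay on both sides of 0, with -0.309 for Slc40a1, -0.221 for Cd5l, -0.085 for Clec4f, 0.047 for Vsig4 and 0.216 for Clec1b. Of the hepatocyte genes, Fgb had an r of 0.251 and the others -0.169 (Apob) to -0.663 (Ttr), with Alb at -0.574. Class I genes divided, with 0.756 for Psmb8 and 0.036 for H2-K1. Irf1 had an r of 0.757. These points share their libraries.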

How the data were processed

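Per the labels' protocols, liver RNA was extracted with TRIzol and RNeasy columns and libraries were directional, after depletion of globin and rRNA, whereas the molecule label says polyA RNA. The submitters' processing notes name mm10, Partek 10.0, STAR 2.7.3a and DESeq2 1.14.1 without roles. Counting tool and strand: not given in the sources used here. Values in CPM were deposited by the authors as 1 table of 20143 genes, and each library has the same sum. GENCODE M21 annotated 20055 of its IDs, and the other 88 hold 9.59% of the CPM. Of the values under 0.6 CPM, 71.1% to 76.4% per library were within 0.02 steps of whole multiples of a single step (4% if evenly spread). Whole reads could thus not be had, and count models were left out.

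The KO against WT test was limma 3.58.1 (R 4.3.3) on log2(CPM + 1), a scale on which changes of low genes look smaller, for the 9186 genes whose mean reached 10 CPM. The fit used empirical Bayes moderation with a mean trend, and two-sided p-values were adjusted by Benjamini-Hochberg over all of them. The labels give no batch. Exact two-sided permutation tests over 924 assignments (smallest possible p 0.00216) and correlations used SciPy 1.17.1 in Python 3.11.15. Copies were sought with BLASTN 2.17.0: no gene of the 7 had a copy of at least 95% identity over at least 500 bases. The p-values measure the spread between these mice. Named were the 7 genes, the genes of their interval, up to 4 genes with the smallest p per pathway list, up to 3 per marker list, and the 10 genes most and 3 least like the pattern. Of the genes so taken, some are not reported here. Other named genes were chosen after their values were seen. The genes and lists were chosen with earlier results of these data known.

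In simulated data of 9165 genes, limma recovered 10% of the genes changed 1.25-fold, 74% of those changed 1.5-fold and 92% of those changed 2-fold. It made 140 calls, 5 of them false, and 0 calls with nothing changed. The alternatives tried were other pseudocounts, filters, scalings and variance models, a replicate block and each library left out.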

Additional observations from a re-analysis of the deposited data

Results flagged for a closer look

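Of 32 sets of 6 mice checked for a mouse far from the others, 2 held one, where chance gives about 1.6 (1 in 20). WT mouse 3 had an H2-Aa over H2-Ab1 ratio of 1.02, apart from 1.13 to 1.16 in the other WT mice. WT mouse 4 had a Cd74 over H2-Ab1 ratio of 3.35, apart from 2.94 to 3.09 in the other WT mice.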

How the results depend on the processing

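None of the 7 class II genes was called under any alternative run, the lowest limma adjusted p being 0.114 (without WT mouse 1), and each log2 difference was above 0 under every alternative that can move it (other pseudocounts, both scalings, library weights, each mouse left out). A pseudocount of 10 lowered the difference of H2-DMa to 0.12, of H2-DMb1 to 0.15 and of Ciita to 0.20. How many had an unadjusted p under 0.05 ran from 1 (without KO mouse 5 or 6 or WT mouse 2, 4 or 5) to 7 (without WT mouse 1 or KO mouse 3, or with median-of-ratios scaling). By exact permutation tests H2-Eb1 alone passed unadjusted (H2-Ab1 0.0628, Cd74 0.0563, Ciita 0.0801). A mean of at least 100 CPM left Cd74 alone to test. Genes called in all numbered 14 (10 higher, 4 lower), 29 with no filter (13 higher, 16 lower), 31 at a mean of at least 1 CPM (16 higher, 15 lower), 4 at 100 CPM (1 higher, 3 lower), 27 with median-of-ratios scaling (16 higher, 11 lower), 19 with quantile normalization (11 higher, 8 lower) and 35 with library weights (19 higher, 16 lower); the filters change how many genes are tested, and the cause of the other shifts was not tested. Leaving out 1 mouse gave 9 (without WT mouse 3) to 25 (without KO mouse 3). Leaving out 1 mouse gave log2 ratio differences of -0.011 to 0.043 for Cd74 over H2-Ab1, -0.053 to 0.022 for Ciita over H2-Ab1, -0.07 to -0.01 for H2-Aa over H2-Ab1, -0.07 to -0.01 for H2-DMa over H2-DMb1 and 0.04 to 0.07 for H2-Eb1 over H2-Ab1. A pseudocount of 10 moved the log2 ratio difference of Ciita over H2-Ab1 from -0.02 to -0.105 (exact permutation p = 0.165, adjusted over 5 ratios 0.460). Same-numbered mice did not deviate together (correlations of -0.514 to 0.388, none highest with its own number), and with the replicate number as a block 11 genes and none of the 7 were called. The simulation recovered few genes at the size of these differences, so a missed threshold does not show equal levels.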

Other observations

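Transcripts of T cells were low in both genotypes. Cd3e was at 1.94 ± 0.359 CPM in KO and 1.31 ± 0.527 CPM in WT, and Cd4, the coreceptor for class II, at 1.58 ± 0.238 CPM in KO and 1.33 ± 0.388 CPM in WT. These were named after their values were seen. They were under the filter, and with no filter limma gave Cd3e a log2 difference of 0.37 (adjusted p = 0.268) and Cd4 0.16 (adjusted p = 0.678).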
